A study of Mus musculus with 28 samples.

Results

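The comparison described here sets hippocampus of fosB d/d mice against hippocampus of wild type mice after kainate. It was defined by the sample labels and by no measured value, and it takes 6 of the 28 arrays of the series, 3 per genotype. Each array measured the RNA of a mouse hippocampus on the Affymetrix Mouse Gene 1.0 ST platform, from 100 ng of total RNA. The replicates are labelled biological, and nothing says whether an array held 1 animal or a pool, so the p-values measure the spread between these samples. All groups used were C57BL/6J mice of 10 weeks. Wild type KA and fosB d/d KA had received kainate (KA), which excites glutamate receptors and provokes seizures. Wild type saline and fosB d/d saline had received saline, and fosB-null KA mice, labelled G/G, had received KA, each with 3 arrays. The dose of KA and the time between KA and sampling are not given in the sources used here, nor is the severity of the seizures.

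Fosb encodes FosB and, through alternative splicing, the shorter delta FosB. Both belong to the Fos family, whose members pair with Jun proteins to form AP-1, a factor that binds promoters and enhancers and is induced in hippocampal neurons by seizures. FosB carries a C-terminal region that delta FosB lacks, and the allele called d lets delta FosB be made without FosB. The labels state only that the d/d mice lack the FosB protein, whereas fosB-null mice make neither form.

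The labels conflict in 3 places that touch these groups. A protocol names a much greater age for all mice than the age label of 10 weeks, the fosB d/d saline group has a source label of kainate although its titles and treatment field say saline, and all mice are labelled female although Y-linked Eif2s3y was at 9.99 to 10.46 (log2 signal) and Xist at 5.97 to 6.38 in the 6 KA arrays. In the saline arrays Eif2s3y was at 9.89 to 10.28 in wild type and 9.83 to 10.33 in fosB d/d, while Xist was at 6.21 to 9.63 and 6.51 to 7.45. Hippocampal markers were bright by their mean deposited value over the 18 arrays of 10-week mice. On that measure Camk2a stood at the 100th percentile of the 19938 genes and Rbfox3 at the 98th percentile. Prox1, which marks dentate granule cells, stood at the 90.3 percentile. Ttr, the defining gene of the choroid plexus, stood at the 99.9 percentile. The array medians of the deposited log2 values were 8.08, 8.38 and 8.43 in wild type KA and 8.10, 8.05 and 8.07 in fosB d/d KA, in the order of the replicate numbers. The replicate 1 arrays of the groups thus had like medians, and replicates 2 and 3 differed in level along with genotype, which cannot be told apart there. Values were therefore quantile normalized, and the difference within replicate 1 is given beside the main results. The number of arrays limits the precision of every value.

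After KA the fosB d/d hippocampus had lower levels than the wild type of 9 of 33 reactive astrocyte genes, among them Timp1, Cd44 and Hspb1, of 3 of 25 cytokines, among them Lif, and of 4 of 29 late activity genes, among them Nptx2. It had higher levels of 3 of 20 astrocyte markers, with Etnppl foremost. The members of these lists were chosen with earlier results of these data known. Of 19938 genes, 95 were lower in fosB d/d KA and 42 were higher at an adjusted p under 0.05 (limma, Benjamini-Hochberg), which is 0.476% and 0.211% of the genes tested. The lower genes differed by 0.30 to 1.88 on the log2 scale, with a median size of 0.67, and 15 of them by more than 1. The higher genes differed by 0.28 to 1.23, with a median size of 0.44, and 2 of them by more than 1. Each of the 95 lower genes had all 3 fosB d/d arrays below all 3 wild type arrays, as had 8.15% of all genes, and each of the 42 higher genes had them all above, as had 5.85% of all genes. On the deposited scale, where the median gene lay at -0.22, the split was 3 higher and 390 lower. All 137 genes kept their sign on the deposited scale and after median centring, and 92 of the lower but 3 of the higher genes passed on the deposited scale. The total depended on single arrays: it was 35 without fosB d/d KA replicate 3, 59 without replicate 1 and 152 without replicate 2. It was 65, 85 and 62 without wild type KA replicates 1, 2 and 3. With both replicate 1 arrays left out, a setting chosen after seeing the data, it was 37. Fitted on the 6 arrays alone, which leaves fewer arrays to estimate the spread, it was 0, with 1750 genes at an unadjusted p under 0.05 in limma.

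**Figure D1:**
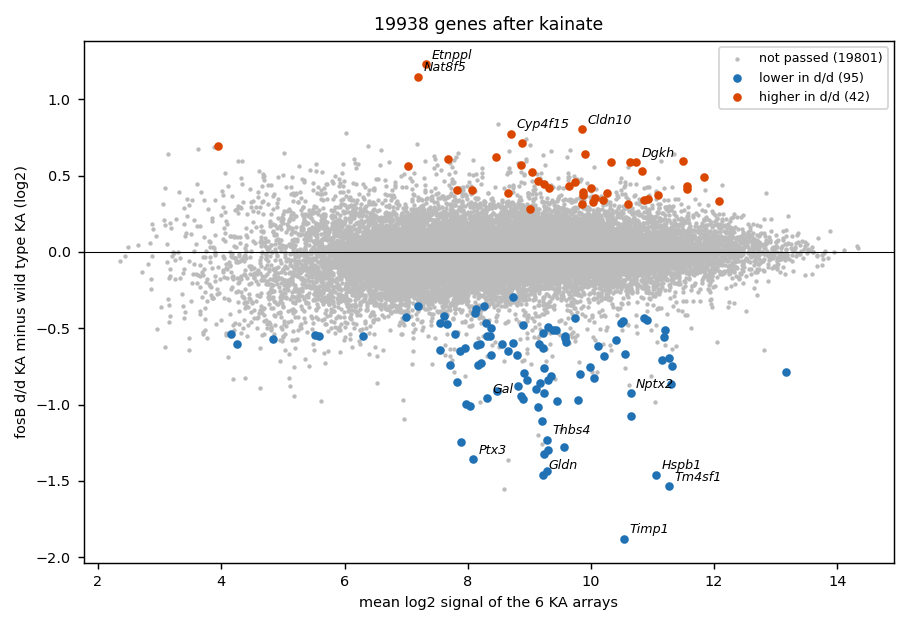
Each point is a gene, placed by its mean log2 signal over the 6 KA arrays (horizontal) and by its log2 difference, fosB d/d KA minus wild type KA (vertical). The 95 lower genes reach down to Timp1 at -1.88, and the 42 higher genes reach up to Etnppl at 1.23.

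Fosb itself did not pass. It read 8.40, 8.61 and 8.82 in the wild type KA arrays and 8.87, 9.06 and 9.21 in the fosB d/d KA arrays, a difference of 0.43 (SE 0.15, limma adjusted p = 0.245). The fosB d/d arrays lay above all wild type arrays. In saline the gene was at 8.79 ± 0.06 (SD, n = 3) in wild type and 9.23 ± 0.23 (SD, n = 3) in fosB d/d. The sources used here do not say which part of the transcript the probes cover, and a transcript of delta FosB may also be read, so the signal does not check the genotype labels. Of the 7 genes of the Fos and Jun family 1 passed, Fos, a relative of Fosb whose protein also pairs with Jun proteins. Fos read 8.49, 8.47 and 8.53 in wild type KA and 7.74, 8.03 and 7.93 in fosB d/d KA (difference -0.60, SE 0.11, adjusted p = 0.0227). Fos was low in all 3 fosB d/d arrays and within replicate 1 differed by -0.75, but it passed in 1 of the 6 fits that left out an array, that without fosB d/d KA replicate 2. The others did not pass, with Fosl1 at -0.55 (adjusted p = 0.217), Junb at -0.33 (0.281), Fosl2 at -0.27 (0.327), Jun at -0.22 (0.701) and Jund at -0.06 (0.901). Among 16 related bZIP factors 1 passed, Atf3, a stress-induced partner of Jun. Atf3 read 8.55, 8.61 and 8.55 in wild type KA against 7.92, 7.72 and 7.90 in fosB d/d KA (difference -0.72, SE 0.09, adjusted p = 0.00187). Atf3 passed in all 6 fits that left out an array.

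AP-1 binds the letters TGANTCA, which read the same on both strands and do not overlap the related cAMP response element TGACGTCA. RefSeq promoter windows of 300 bases (build GRCm38.p6, from 250 bases before the start site to 50 after it) were found for 15614 of the measured genes, and 1262 of these (8.08%) held TGANTCA. Among the lower genes with a window it was 12 of 75 (16%) and among the higher genes 3 of 41 (7.32%). The element TGACGTCA stood in the windows of 424 genes (2.72%), of 0 lower genes and of 1 higher gene, Kptn. A match is a description of the letters and not a bound site. The 250 bases before the start site are shown for 3 lower genes and 1 higher gene in which the letters lie before the start, all on the plus strand, to show where the match stands. TGANTCA is in capitals. The genes are Gldn (chr9:54286236-54286485), Lif (chr11:4257318-4257567), S100a11 (chr3:93520246-93520495), chosen after its values were seen because it holds 2 matches, and Gja1 (chr10:56377050-56377299).
Gldn: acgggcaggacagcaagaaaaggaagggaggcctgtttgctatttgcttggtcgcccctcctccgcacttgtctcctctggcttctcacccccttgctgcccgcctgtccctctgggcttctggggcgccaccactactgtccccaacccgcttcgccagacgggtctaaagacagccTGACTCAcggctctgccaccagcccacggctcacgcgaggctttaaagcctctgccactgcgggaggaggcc
Lif: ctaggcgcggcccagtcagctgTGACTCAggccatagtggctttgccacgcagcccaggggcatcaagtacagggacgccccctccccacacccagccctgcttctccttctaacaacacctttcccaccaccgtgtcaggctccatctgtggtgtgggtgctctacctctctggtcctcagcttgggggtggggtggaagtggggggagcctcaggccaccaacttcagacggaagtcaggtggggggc
S100a11: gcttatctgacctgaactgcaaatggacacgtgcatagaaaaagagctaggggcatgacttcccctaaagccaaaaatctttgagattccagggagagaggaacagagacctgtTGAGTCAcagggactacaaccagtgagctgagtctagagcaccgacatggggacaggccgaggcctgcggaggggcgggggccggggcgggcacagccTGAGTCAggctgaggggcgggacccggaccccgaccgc
Gja1: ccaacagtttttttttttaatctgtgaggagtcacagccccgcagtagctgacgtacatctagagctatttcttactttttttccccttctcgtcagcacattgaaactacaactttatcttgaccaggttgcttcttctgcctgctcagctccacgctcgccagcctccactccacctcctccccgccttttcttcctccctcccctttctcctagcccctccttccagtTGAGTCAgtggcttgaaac
In Gldn the match runs from 72 to 66 bases before the start site, in Lif from 228 to 222, in S100a11 from 136 to 130 and again from 38 to 32, and in Gja1 from 19 to 13. Gldn, Lif and S100a11, a calcium-binding protein at -0.71 (adjusted p = 0.0153), were lower in fosB d/d KA, while Gja1 was higher, so the same letters stood before genes of either direction. S100a11 and Gja1 passed in 3 and in 2 of the 6 fits that left out an array.

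Genes that astrocytes turn on after injury or seizure had the lowest median difference of the 38 gene lists. The lists were chosen with earlier results of these data known, so this rank and the counts are descriptions and not independent support. Of 33 reactive astrocyte genes measured, 9 were lower in fosB d/d KA and 0 higher, and their median difference was -0.57 against -0.01 for all genes. In 17 of the 33 all fosB d/d arrays lay below all wild type arrays, against 8.15% of all genes. Timp1, a secreted inhibitor of matrix metalloproteinases, read 12.12, 11.02 and 11.30 in wild type KA and 9.44, 10.39 and 8.97 in fosB d/d KA. The fosB d/d level was 3.68-fold below the wild type level (log2 difference -1.88, SE 0.30, adjusted p = 0.00839), and the groups did not overlap. Hspb1, a small heat shock protein, read 11.84, 11.85 and 11.66 in wild type KA and 9.96, 10.88 and 10.13 in fosB d/d KA (-1.46, SE 0.27, adjusted p = 0.0188). Cd44, the cell surface receptor for hyaluronan, read 10.18, 9.71 and 10.11 against 8.21, 9.17 and 8.32 (-1.44, SE 0.23, adjusted p = 0.00821). In all 3 genes replicate 2 was the highest fosB d/d array. Tm4sf1, a membrane protein related to the tetraspanins, read 11.93, 11.98 and 12.19 in wild type KA and 9.98, 11.19 and 10.33 in fosB d/d KA (-1.54, SE 0.30, adjusted p = 0.0254). Ptx3, a secreted long pentraxin, read 8.91, 8.75 and 8.63 against 7.01, 7.39 and 7.83 (-1.36, SE 0.26, adjusted p = 0.0234). Tgm1, a transglutaminase, differed by -1.28 (adjusted p = 0.0278), and Serpina3n, a protease inhibitor and one of the brightest genes of the list, by -0.79 (adjusted p = 0.0261). Clcf1, a cytokine of the gp130 family, and Sphk1, the kinase that makes sphingosine 1-phosphate, differed by -0.94 and -0.65 (adjusted p = 0.0168 and 0.0393).

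The defining intermediate filament genes of astrocytes did not pass. Gfap read 12.69, 12.77 and 12.66 in wild type KA and 11.98, 12.72 and 12.26 in fosB d/d KA (-0.39, SE 0.13, adjusted p = 0.238), with replicate 2 of fosB d/d inside the wild type range. Vim read 13.10, 13.07 and 13.20 against 12.19, 12.90 and 12.36 (-0.64, SE 0.19, adjusted p = 0.161), without overlap. S1pr3 was at -0.98 (adjusted p = 0.0511), Emp1 at -1.16 (0.0915), Stat3 at -0.59 (0.0898) and Osmr, a receptor subunit for oncostatin M, at -0.78 (0.201). In saline the list stood together in both genotypes, with a median genotype difference of 0.03. The log2 of its summed signal was 15.95 to 16.06 over the wild type KA arrays, 15.07 to 15.72 over fosB d/d KA, 14.52 to 14.62 over wild type saline and 14.57 to 14.62 over fosB d/d saline. The count of 9 rested on single arrays: it was 2 without fosB d/d KA replicate 1 and 2 without replicate 3, and 3, 4 and 3 without wild type KA replicates 1, 2 and 3. It was 12 without fosB d/d KA replicate 2, 17 on the deposited scale and 0 with both replicate 1 arrays left out. Timp1 passed in all 6 fits that left out an array and Cd44 in 5, all but that without fosB d/d KA replicate 3. Clcf1 passed in 4. Tm4sf1, Hspb1, Tgm1 and Serpina3n passed in 1, that without fosB d/d KA replicate 2, Ptx3 in that without replicate 3, and Sphk1 in 0. Within replicate 1, where the arrays have like medians, Timp1 differed by -2.68, Cd44 by -1.98, Tm4sf1 by -1.95, Ptx3 by -1.90 and Hspb1 by -1.88.

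**Figure D2:**
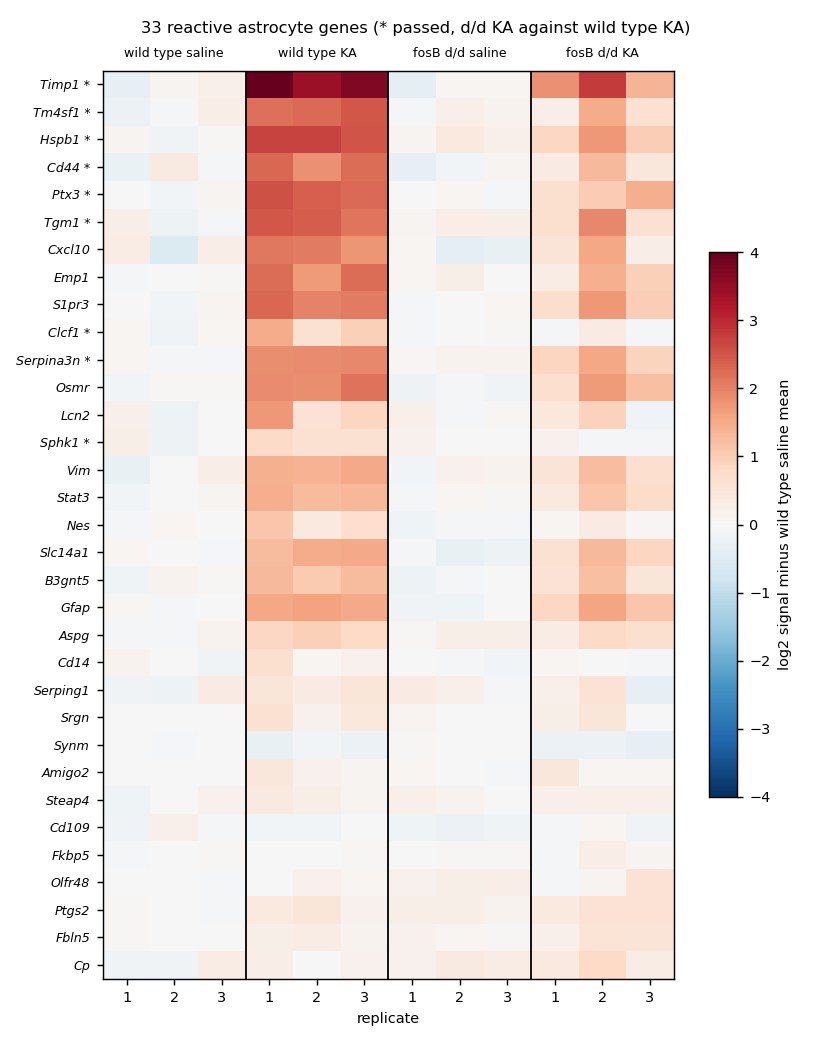
Rows are the 33 reactive astrocyte genes and columns the arrays of 4 groups, 3 replicates each. Colour gives the log2 signal minus the mean of wild type saline, and an asterisk marks the 9 genes that passed between fosB d/d KA and wild type KA. In the upper rows the wild type KA columns are the deepest red, and replicate 2 is the fosB d/d KA array nearest to wild type KA in 25 of the 33 genes.

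Among general astrocyte markers the calls were in the other direction. Of 20 measured, 3 were higher in fosB d/d KA and 0 lower, with a median difference of 0.16, and the list's median stayed above that of all genes on each scale. Etnppl, an enzyme that breaks down phosphoethanolamine, read 6.85, 6.51 and 6.75 in wild type KA and 7.94, 8.08 and 7.78 in fosB d/d KA. That is 2.34-fold more in fosB d/d (log2 difference 1.23, SE 0.14, adjusted p = 0.000607), with all fosB d/d arrays above any wild type array. Both KA groups lay under the saline levels of 8.35 ± 0.06 (SD, n = 3) in wild type and 8.48 ± 0.18 (SD, n = 3) in fosB d/d. Gja1, the gap junction protein connexin 43, read 10.38, 10.75 and 10.58 against 11.29, 10.92 and 11.08 (0.53, SE 0.10, adjusted p = 0.0278). Slc4a4, a sodium bicarbonate cotransporter, read 11.13, 11.44 and 11.47 against 11.77, 11.79 and 11.78 (0.43, SE 0.08, adjusted p = 0.0225). Wild type replicate 1 was the lowest array in these last 2 genes. Etnppl passed in all 6 fits that left out an array, Slc4a4 in 2, those without wild type KA replicates 2 and 3. Aqp4 (-0.41, adjusted p = 0.346), Aldh1l1 (-0.21, 0.509) and Slc1a2 (0.11, 0.583) did not pass. The count of 3 was 1 without fosB d/d KA replicate 1, without replicate 3, without wild type KA replicate 1 and on the deposited scale. Fewer cells of a type and less RNA per cell cannot be told apart in these bulk samples.

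Further genes outside the astrocyte list were higher in fosB d/d KA. Slc6a11, a GABA transporter, read 10.88, 11.32 and 11.37 in wild type KA and 11.76, 11.72 and 11.88 in fosB d/d KA (0.59, SE 0.11, adjusted p = 0.022), and it was the 1 of 12 genes of the GABA list that passed. Agt, which encodes angiotensinogen, was at 0.64 (adjusted p = 0.029), and Cldn10, a tight junction protein, at 0.80 (adjusted p = 0.0234). Cyp4f15, a cytochrome P450 of fatty acid metabolism, read 8.23, 8.26 and 8.47 in wild type KA and 9.23, 8.87 and 9.19 in fosB d/d KA (0.78, SE 0.11, adjusted p = 0.00284). Nat8f5 was at 1.15 (adjusted p = 0.0388), Ankub1 at 0.61 (0.0173), B3galt2, a galactosyltransferase, at 0.59 (0.0343), and Folh1, which cleaves N-acetylaspartylglutamate, at 0.62 (0.0152). Tsc22d3, a leucine zipper protein induced by glucocorticoids, was at 0.71 (adjusted p = 0.0247) and was the 1 of 14 glucocorticoid response genes that passed, with Nr3c1, the receptor, at 0.29 (0.0929) and Sgk1 at 0.33 (0.495). Npy1r, the Y1 receptor for neuropeptide Y, was at 0.44 (adjusted p = 0.0244) and was the 1 of 25 neuropeptide receptors that passed. Of these genes Cyp4f15 passed in all 6 fits that left out an array, Folh1 in 4, Slc6a11 and Ankub1 in 3, Cldn10, B3galt2 and Tsc22d3 in 2, and Agt, Npy1r and Nat8f5 in 1. Nat8f5 passed in the fit without fosB d/d KA replicate 3 and Agt and Npy1r in that without replicate 2.

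Genes of inflammation were lower for a few members. Of 25 cytokines and chemokines 3 were lower and 0 higher in fosB d/d KA, with a list median of -0.18. Lif, a cytokine of the gp130 family that acts on astrocytes, read 9.09, 8.37 and 8.15 in wild type KA and 7.26, 7.44 and 7.87 in fosB d/d KA (-1.01, SE 0.18, adjusted p = 0.0173). Ccl12, a chemokine for monocytes, read 8.58, 8.27 and 8.69 against 6.65, 8.06 and 7.09 (-1.25, SE 0.27, adjusted p = 0.0433). Clcf1 was the third. The wild type array of replicate 1 was the highest for Lif, and for Ccl12 fosB d/d replicate 2 lay close under the lowest wild type array. Ccl3 (-1.36, adjusted p = 0.1), Cxcl10 (-1.20, 0.159), Ccl2 (-0.99, 0.0771) and Il6 (-0.53, 0.234) did not pass. The count of 3 was 7 without fosB d/d KA replicate 2, 1 without replicate 3 and 0 without replicate 1, and 9 on the deposited scale. Lif passed in 5 of the 6 fits that left out an array, all but that without fosB d/d KA replicate 1, and Ccl12 in 1, that without replicate 2.

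Of 22 microglia markers 1 was lower, Ly86, a partner of a Toll-like receptor homologue (-0.87, SE 0.16, adjusted p = 0.022). The defining markers did not pass: Cx3cr1 was at -0.14 (adjusted p = 0.521), P2ry12 at -0.20 (0.503), Csf1r at -0.05 (0.813) and Tmem119 at 0.01 (0.985, and -0.17 on the deposited scale). Of 21 genes of activated microglia 2 were lower, Cst7, a cysteine protease inhibitor, at -0.85 (SE 0.14, adjusted p = 0.0106), and Cd9, a tetraspanin, at -0.62 (SE 0.07, adjusted p = 0.00112). Cd9 read 10.55, 10.36 and 10.37 in wild type KA and 9.78, 9.95 and 9.71 in fosB d/d KA. Gpr84, a receptor for medium-chain fatty acids on myeloid cells, read 10.19, 9.77 and 9.91 against 8.24, 9.34 and 8.40 (-1.30, SE 0.24, adjusted p = 0.0202). The fosB d/d arrays lay below the wild type arrays in both genes. The log2 of the summed signal of the 22 microglia markers was 14.40 to 14.46 in wild type KA, 14.08 to 14.30 in fosB d/d KA, 13.95 to 14.06 in wild type saline and 13.91 to 13.97 in fosB d/d saline, and its part in the lower reactive astrocyte, cytokine and microglia genes was not tested. Of 20 interferon response genes 1 was lower, Ifitm3 (-0.75, adjusted p = 0.046), and of 15 complement and MHC genes, 17 markers of infiltrating blood cells and 4 red blood cell genes 0 passed (limma, with 8 of these 36 genes at an unadjusted p under 0.05). Cd9 passed in all 6 fits that left out an array, Cst7 in 5, and Ly86, Gpr84 and Ifitm3 in 2, those without fosB d/d KA replicate 2 and without wild type KA replicate 2. On the deposited scale the lower genes numbered 5 microglia markers, 4 genes of activated microglia, 3 interferon response genes and 2 complement and MHC genes.

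Activity-regulated genes of neurons differed in single members. Of 29 late activity genes, those expressed hours after neuronal firing, 4 were lower and 0 higher, with a list median of -0.23. Nptx2, a secreted pentraxin that gathers AMPA receptors at synapses, read 11.004, 11.16 and 11.15 in wild type KA and 10.01, 10.29 and 10.25 in fosB d/d KA. The difference of -0.92 (SE 0.09, adjusted p = 0.000225) was larger than the spread of either group, with an SD of 0.09 in wild type and 0.15 in fosB d/d. Gldn, gliomedin, a matrix protein known from the node of Ranvier, read 9.95, 9.91 and 9.98 against 8.14, 8.93 and 8.38 (-1.46, SE 0.20, adjusted p = 0.0031). Rgs4, which shortens the signal of G proteins, read 11.69, 11.48 and 11.68 against 10.75, 11.14 and 10.87 (-0.70, SE 0.10, adjusted p = 0.00345). Acan, the aggrecan core protein of perineuronal nets, was at -0.46 (adjusted p = 0.0202). Bdnf was at -0.30 (SE 0.07, adjusted p = 0.0799), Scg2 at -0.49 (0.0501), Inhba at 0.07 (0.943, and -0.09 on the deposited scale) and Nptx1 at 0.11 (0.744). The count of 4 was 12 on the deposited scale and 1 with both replicate 1 arrays left out. Nptx2, Gldn and Rgs4 passed in all 6 fits that left out an array, and Acan in 1, that without wild type KA replicate 1. Of 31 immediate early genes 1 was lower, Trib1, a pseudokinase (-0.59, SE 0.07, adjusted p = 0.00154), which passed in all 6. On the deposited scale 3 immediate early genes were lower.

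Of 26 neuropeptide genes 1 was lower, and 6 were on the deposited scale. Gal, which encodes galanin, a peptide that dampens seizures, read 9.09, 8.68 and 8.59 in wild type KA and 7.90, 7.73 and 7.85 in fosB d/d KA (-0.96, SE 0.15, adjusted p = 0.00742), and it passed in all 6 fits that left out an array. In saline Gal was at 6.97 ± 0.35 (SD, n = 3) in wild type and 7.01 ± 0.12 (SD, n = 3) in fosB d/d, so the fosB d/d KA arrays lay above saline and below wild type KA. Npy read 12.38, 12.46 and 12.17 against 11.84, 11.59 and 11.80 (-0.59, SE 0.14, adjusted p = 0.0789). Penk was at -0.62 (adjusted p = 0.116), and Trh, the highest fosB d/d KA array of which read 9.15 and the lowest wild type KA array 9.55, at -1.26 (0.194). These 3 did not overlap between the groups and did not pass. In 9 of the 26 neuropeptide genes all fosB d/d KA arrays lay below all wild type KA arrays, against 8.15% of all genes. Of 13 genes reported elsewhere as targets of delta FosB or FosB 2 were lower, Gal and Fos, and their median difference was -0.01 against -0.01 for all genes.

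Among 10 thrombospondins and pentraxins 3 were lower, Ptx3, Nptx2 and Thbs4. Thbs4, an astrocyte-secreted matrix glycoprotein, read 9.95, 9.74 and 10.00 in wild type KA and 8.63, 8.82 and 8.54 in fosB d/d KA (-1.23, SE 0.12, adjusted p = 0.000225), and it passed in all 6 fits that left out an array. The related genes Nptx1, Thbs1 (-0.07, adjusted p = 0.916) and Thbs3 (-0.06, 0.777) did not pass. Of 28 genes of matrix remodelling 4 were lower, Timp1, Cd44, Tnc and Acan, and 1 was higher, Timp4. Tnc, the matrix glycoprotein tenascin C, was at -0.84 (adjusted p = 0.0227) and Timp4, a relative of Timp1, at 0.39 (adjusted p = 0.0498). Timp4 passed in 0 and Tnc in 2 of the 6 fits that left out an array, and the count of 4 lower was 1 without fosB d/d KA replicate 3 and 2 without replicate 1 or without wild type KA replicate 3. On the deposited scale 8 genes of matrix remodelling were lower and 0 higher. Klk6, a secreted serine protease, read 9.99, 9.73 and 9.56 against 8.40, 8.95 and 8.60 (-1.11, SE 0.15, adjusted p = 0.00216). Scgb3a1, a small secreted protein, read 10.35, 9.43 and 9.94 against 8.37, 8.84 and 8.53 (-1.33, SE 0.20, adjusted p = 0.00724). Klk6 and Scgb3a1 passed in all 6. Hmox1, heme oxygenase, was at -0.61 (adjusted p = 0.0261) and with Hspb1 made 2 of 19 heat shock and oxidative stress genes, and Hbegf, a ligand of the EGF receptor, was the 1 of 25 growth factor genes that passed (-0.80, adjusted p = 0.0498). Hbegf passed in the fit without fosB d/d KA replicate 2 alone of the 6, and Hmox1 in 3.

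Neuronal and other cell type genes showed few calls, as did all genes (0.687% called), so the low counts do not set these lists apart. Of 18 dentate granule cell markers 1 was lower, Glis3 (-0.45, adjusted p = 0.0278), which passed in 1 of the 6 fits that left out an array, while the list's median was 0.20. Calls were 0 in 19 CA1, CA2 and CA3 pyramidal markers, 19 interneuron markers, 16 pan-neuronal markers, 42 potassium and HCN channel genes, 24 sodium and calcium channel genes, 21 glutamate receptor genes and 17 neurogenesis genes. Of these 155 genes 20 were at an unadjusted p under 0.05 in limma, as were 2442 of all 19938 genes. The summed pan-neuronal signal was 16.55 to 16.66 in wild type KA and 16.62 to 16.65 in fosB d/d KA. Calls were also 0 in 18 oligodendrocyte and myelin genes, 19 endothelial and pericyte markers, 15 choroid plexus markers and 17 meningeal markers. Of these 69 genes 17 were at an unadjusted p under 0.05 in limma. List medians were 0.19, 0.04, 0.31 and 0.24 in that order. All fosB d/d KA arrays lay above all wild type KA arrays in 10 of 18 oligodendrocyte genes and 6 of 17 meningeal markers. It was 2 of 19 endothelial and 1 of 15 choroid plexus markers, against 5.85% of all genes. With median centring 2 oligodendrocyte genes were called higher. A count of 0 thus does not show unchanged levels. The summed choroid plexus signal was 14.43 to 15.11 in wild type KA, 15.02 to 15.11 in fosB d/d KA and 12.99 to 15.09 in wild type saline, and the meningeal signal was 13.79 to 14.00 in wild type KA and 14.17 to 14.37 in fosB d/d KA. The part of choroid plexus and meninges in the results was not tested.

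**Figure D3:**
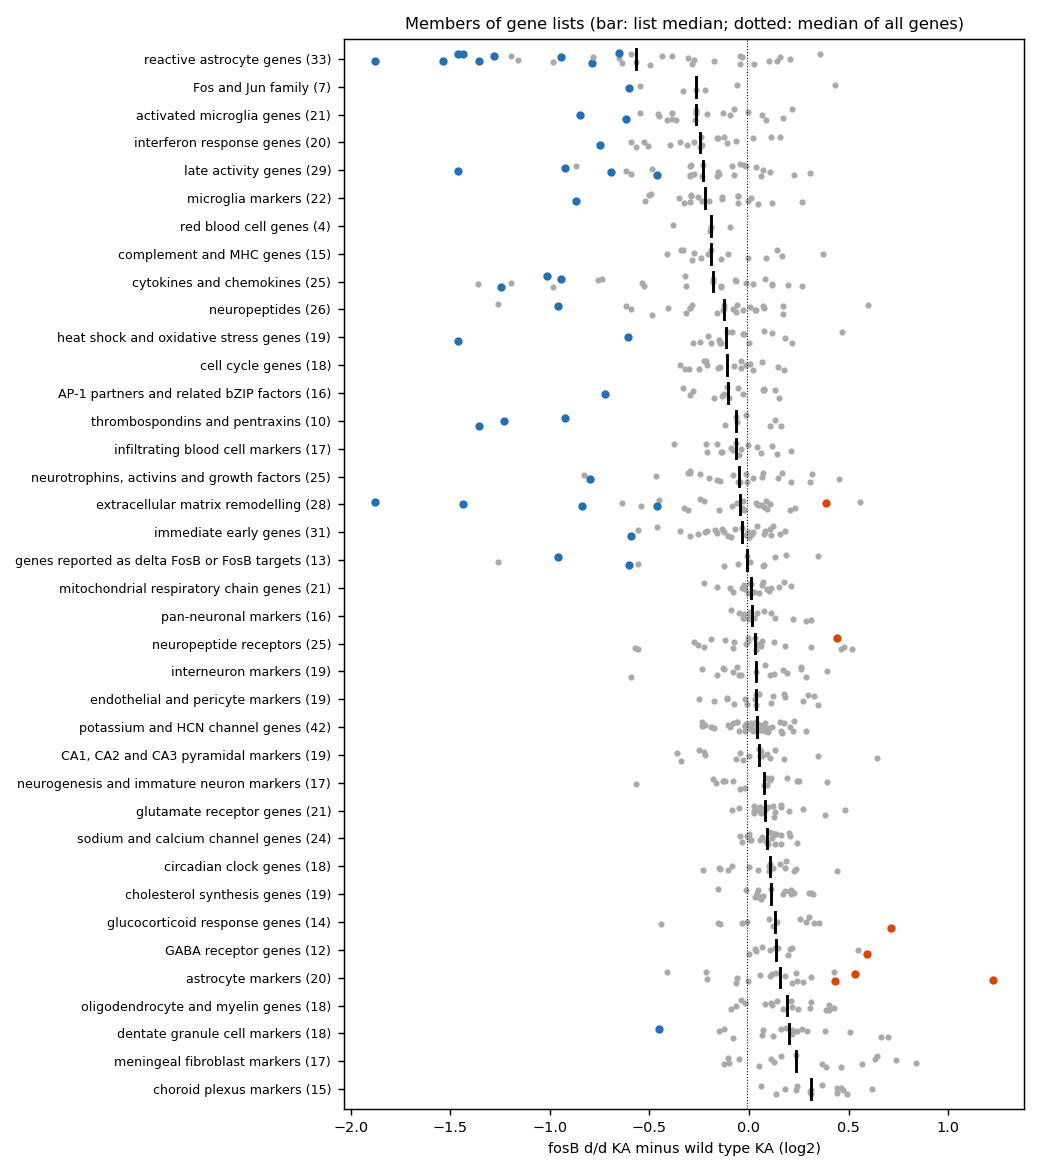
Each row is a gene list with its number of measured genes, each point a member placed by its log2 difference, fosB d/d KA minus wild type KA. Blue members passed as lower and orange ones as higher, a bar marks the list's median and the dotted line the median of all genes. The reactive astrocyte list has the lowest median, -0.57, with 9 of its 33 members passing.

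Whether the genotypes differed more after KA than after saline was tested as the difference of the genotype differences. This called 6 of 19938 genes (0.0301%), 4 of them lower and 2 higher, and these genes are named because they were called, after their values were seen. Thbs4 went from 9.28 ± 0.19 (SD, n = 3) in wild type saline to 9.90 ± 0.13 in wild type KA and from 9.64 ± 0.12 in fosB d/d saline to 8.66 ± 0.15 in fosB d/d KA. Thbs4 was thus higher after KA than after saline in wild type (0.62, SE 0.12, limma adjusted p = 0.00468). It was lower in fosB d/d (-0.98, SE 0.12, adjusted p = 0.0033), and the difference of -1.60 (SE 0.17, adjusted p = 0.00149) was itself called. Array medians of replicates 2 and 3 were 8.34 and 8.40 in wild type saline and 8.33 and 8.34 in fosB d/d saline. In fosB d/d KA they were 8.05 and 8.07. In these replicates array level cannot be told apart from the fosB d/d response to KA or from the differences of responses. Nptx2 rose by 1.30 in wild type (adjusted p = 5.09e-06), stood 0.20 above saline in fosB d/d (adjusted p = 0.403) and differed between them by -1.11 (SE 0.13, adjusted p = 0.00318). Egln3, an oxygen-sensing prolyl hydroxylase, read 9.54, 9.57 and 9.58 in wild type KA and 8.72, 8.78 and 8.48 in fosB d/d KA, where saline stood at 8.61 ± 0.11 and 8.55 ± 0.11 (SD, n = 3 each). All fosB d/d KA arrays of Egln3 lay near the saline level, and the difference of responses was -0.83 (SE 0.13, adjusted p = 0.0398). Cd9 differed in response by -0.68 (SE 0.11, adjusted p = 0.0398). Dgkh, a diacylglycerol kinase, read 10.35, 10.46 and 10.51 in wild type KA and 10.99, 11.01 and 11.09 in fosB d/d KA, where saline stood at 11.07 ± 0.01 and 10.93 ± 0.14 (SD, n = 3 each), with a difference of responses of 0.73 (SE 0.12, adjusted p = 0.043). Gask1a, a protein of the Golgi, differed by 0.64 (SE 0.10, adjusted p = 0.043). The difference of responses did not pass for Timp1 (-1.81, SE 0.42, adjusted p = 0.192), Gldn (-1.56, SE 0.29, 0.121), Gal (-1.0, SE 0.21, 0.144) or Etnppl (1.09, SE 0.19, 0.102). The count of 6 was 2 or 3 when any of the 12 arrays of the 4 groups was left out, except 6 without wild type saline replicate 1 and 35 without fosB d/d KA replicate 2. It was 3 on the deposited scale and 2 with median centring.

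**Figure D4:**
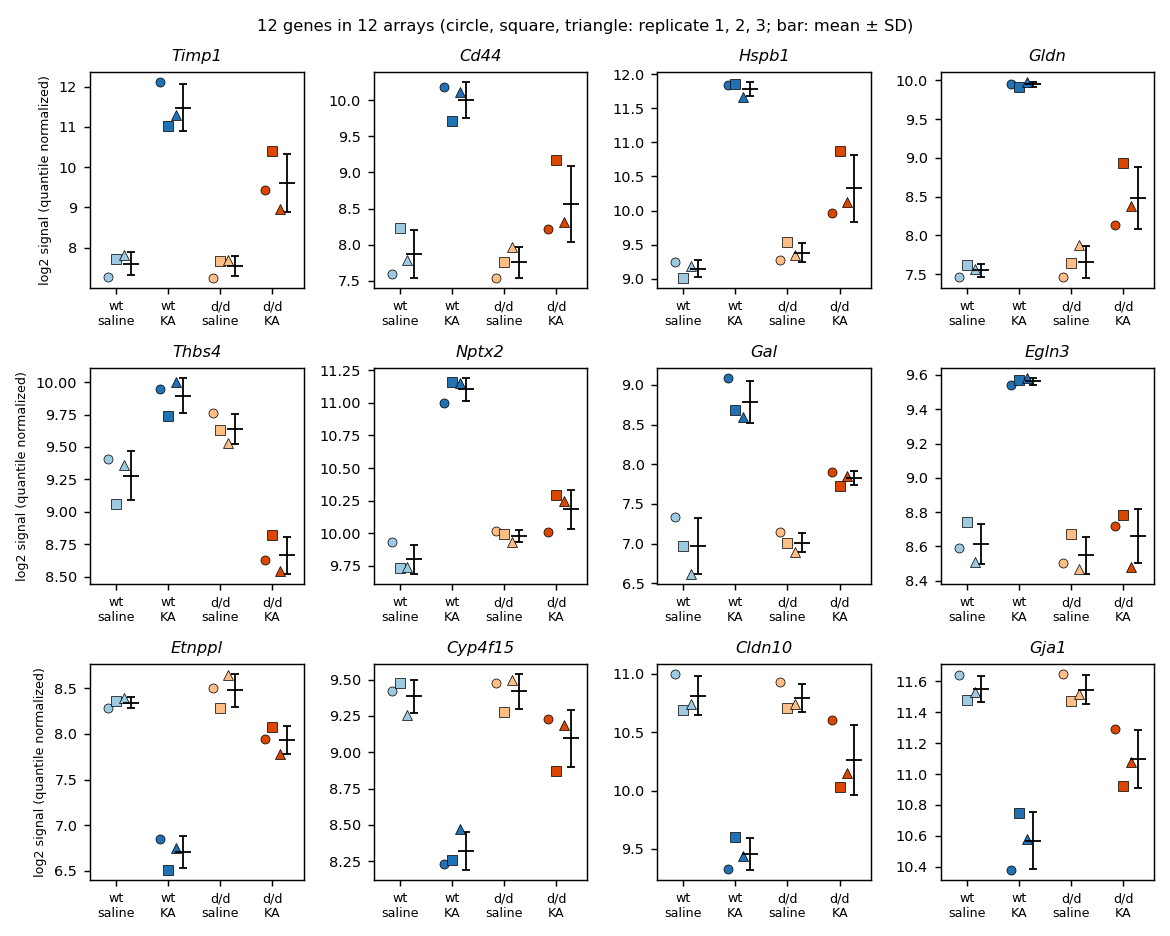
Log2 signal (vertical, quantile normalized) of 12 genes in the 12 arrays of 4 groups, 1 point per array with the shape giving the replicate number, and the mean ± SD of 3 arrays as a bar. Thbs4 lies below saline in fosB d/d KA and above it in wild type KA, and Egln3 and Nptx2 lie near saline in fosB d/d KA.

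Set against fosB-null mice after KA, which lack both proteins, fosB d/d mice after KA had 0 genes called (limma), with 343 genes at an unadjusted p under 0.05 and a smallest adjusted p of 0.179. The difference, fosB d/d KA minus fosB-null KA, was -0.08 for Thbs4 (95% interval -0.33 to 0.18) and 0.15 for Egln3 (-0.03 to 0.34). It was 0.23 for Nptx2 (0.03 to 0.43), 0.33 for Gal (0.02 to 0.65), 0.56 for Etnppl (0.27 to 0.86) and -0.85 for Timp1 (-1.49 to -0.22), intervals that are not adjusted for the number of genes. Timp1 read 10.33 to 10.55 in fosB-null KA, and the upper end of the fosB d/d KA range of 8.97 to 10.39 overlapped it. For Fosb the difference was 0.79 (0.47 to 1.11, adjusted p = 0.607). With intervals of this width, the missing calls do not show that the mutants were alike. Against wild type KA in the same limma fit, fosB-null KA had 56 genes higher and 99 lower. Thbs4 differed there by -1.15 (adjusted p = 0.000156), Nptx2 by -1.16 (2.95e-05), Egln3 by -1.06 (2.95e-05) and Gal by -1.29 (0.000525). Etnppl differed by 0.66 (0.0357), and Timp1 at -1.03 (0.123) did not pass. The array medians of fosB-null KA were 8.10, 8.08 and 8.11, near those of fosB d/d KA.

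A few genes differed without KA or lie near the altered gene. In saline 2 genes were called, both lower in fosB d/d: Ercc2, a helicase of transcription and DNA repair, and Pglyrp1, a peptidoglycan recognition protein. Ercc2 stood at 9.50 ± 0.04 in wild type saline and 8.88 ± 0.05 in fosB d/d saline (SD, n = 3 each), and at 9.20, 9.38 and 9.35 against 8.64, 8.47 and 8.45 after KA (-0.79, SE 0.08, adjusted p = 0.000227). Pglyrp1 stood at 9.03 ± 0.06 against 8.41 ± 0.05 in saline and at 9.24, 9.14 and 9.05 against 8.47, 8.55 and 8.37 after KA (-0.68, SE 0.08, adjusted p = 0.00112). The groups did not overlap in either gene or treatment. Both lie on chromosome 7 with Fosb, 4 and 24 protein-coding genes away in the RefSeq order. Within 300 such genes on either side of Fosb 416 were measured and 5 called (1.2%), as were 19 of 1642 on all of chromosome 7 (1.16%) and 0.687% of all genes. Of the remaining 3 within that distance Pnmal2 lies 53 genes away (0.59, SE 0.08, adjusted p = 0.00174), Kptn 78 (0.28, SE 0.06, adjusted p = 0.046) and Zfp180 139 (-0.55, SE 0.11, adjusted p = 0.035). Pnmal2 was at 10.33, 10.28 and 10.40 in wild type KA and 11.02, 10.86 and 10.90 in fosB d/d KA. Ercc2, Pglyrp1, Kptn and Zfp180 were singled out after their values were seen. Ercc2, Pglyrp1 and Pnmal2 passed in all 6 fits that left out an array, Kptn in 0 and Zfp180 in 1, that without fosB d/d KA replicate 1.

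The differences had the same sign within replicate 1 and over replicates 2 and 3 for all 95 lower and all 42 higher genes, which follows from groups that do not overlap. Their size differed: the lower genes had a median of -0.80 within replicate 1 and -0.61 over replicates 2 and 3, and the higher genes 0.52 and 0.40. Within replicate 1 Gldn differed by -1.80, Thbs4 by -1.32, Gal by -1.19, Egln3 by -0.82 and Etnppl by 1.09 on the log2 scale. Replicate 2 was the fosB d/d KA array nearest to wild type in 62 of the 95 lower and 25 of the 42 higher genes, and replicate 1 was the wild type KA array farthest from fosB d/d in 58 and 18. Of the 137 genes, 23 lower and 4 higher ones passed in each of the 6 fits that left out an array, and 9 and 6 passed in 0 of them. With the array set as a fixed block 76 of the 95 lower and 32 of the 42 higher genes passed. The KA groups of fosB d/d and wild type share a set in replicate 1 alone, so that fit links them through replicate 1 arrays. Its counts therefore do not show calls that hold over all 3 replicates. Of the called genes named here, B3galt2 (adjusted p = 0.0854), Acan (0.105), Ifitm3 (0.102) and Kptn (0.0799) did not pass in that limma fit.

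**Figure D5:**
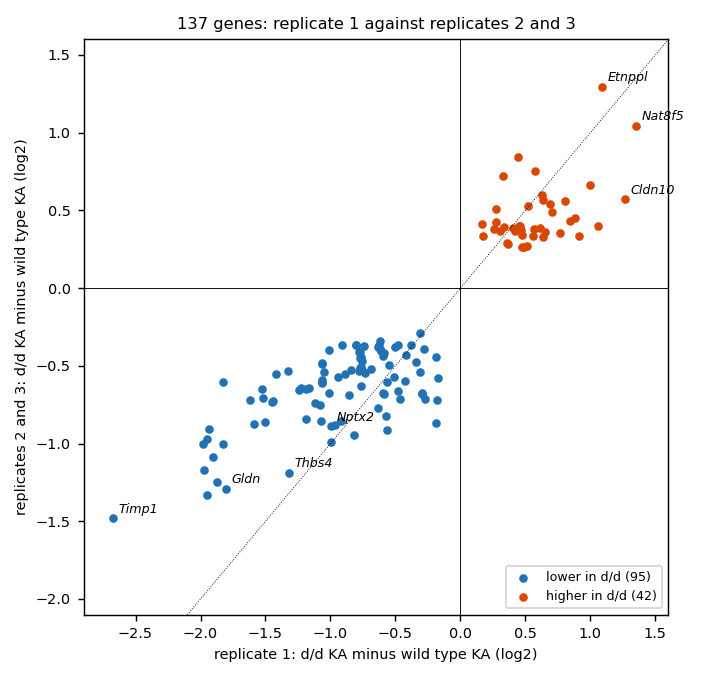
Each point is 1 of the 137 genes that passed, placed by its log2 difference within the replicate 1 arrays (horizontal, 1 array against 1) and over replicates 2 and 3 (vertical, 2 against 2). The dotted line marks equal values, and the lower genes have a median of -0.80 on the horizontal and -0.61 on the vertical axis.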

How the data were processed

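The authors deposited log2 signals of 35557 probe sets per array, made with Affymetrix Expression Console per the submitters' processing notes. The version and the summarisation method are not given in the sources used here. Of these probe sets 21789 had 1 gene symbol in the platform annotation, 1621 had several and were left out, and the rest were unnamed. The brightest probe set by mean deposited value stood for each gene, which gave 19938 genes, 999 of them with several probe sets.

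The 18 arrays of 10-week mice were quantile normalized and fitted together with limma 3.58.1 in R 4.3.3, as 6 group means that share 1 estimate of spread (lmFit, eBayes). P-values were adjusted by Benjamini-Hochberg over all genes, and genes were called under 0.05. The differences of responses and the comparison with fosB-null KA are contrasts of the same fit. The fit was tested on simulated data with independent genes and an even offset per array. These held no array set effect, so that test does not bear on how the counts depend on the arrays.

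Named were Fosb, the 12 called genes of largest difference per direction (predicted loci, olfactory and vomeronasal receptors left out), and members of 38 gene lists, up to 4 of smallest p each and others with their values. The members of the lists and the rules were chosen with earlier results of these data known. Summed marker signals are sums of linear signals. Promoters come from RefSeq, build GRCm38.p6. Alternatives were the deposited scale, median centring, a replicate or array set block, array weights, other probe set rules, other sets of arrays and leaving out each array. Array sets were defined by replicate number and array median (above or below 8.2), not by a labelled batch. The replicate numbers were checked as pairs by the correlation of same-numbered arrays' deviations from their group means. All 3 correlations were over 0.1 between fosB d/d KA and fosB d/d saline (0.263 to 0.355) and between the saline groups (0.396 to 0.772). The same held between fosB d/d KA and wild type saline (0.27 to 0.318), but not between fosB d/d KA and wild type KA (-0.053 to 0.54). Replicate 1 was the same array set in every group, so paired samples and a shared array set cannot be told apart here. The main fit used no replicate block.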

Additional observations from a re-analysis of the deposited data

Results flagged for a closer look

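For 6 genes the genotype difference after KA differed from that after saline, tested as an interaction in limma. The difference, fosB d/d minus wild type after KA less the same after saline, was -1.596 for Thbs4 (adjusted p = 0.00149), -1.106 for Nptx2 (0.00318), -0.834 for Egln3 (0.0398) and -0.684 for Cd9 (0.0398). It was 0.726 for Dgkh (0.043) and 0.64 for Gask1a (0.043). After KA the 3 fosB d/d arrays lay on one side of the 3 wild type arrays in each of these genes. Over all genes they lay below in 8.15% and above in 5.85%. In saline Cd9 was at 9.50 ± 0.01 in wild type and 9.57 ± 0.06 in fosB d/d, and Gask1a at 8.72 ± 0.09 in wild type and 8.49 ± 0.07 in fosB d/d (SD, n = 3 each). The fosB d/d saline group has a source label of kainate, so these 6 values rest on the title and treatment labels. Most fosB d/d KA arrays, all but replicate 1, also differed in level from the same-numbered arrays of the other groups compared. That difference in level cannot be told apart from these values.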

How the results depend on the processing

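Against the 137 genes called between fosB d/d KA and wild type KA, 393 were called on the deposited scale, 448 and 349 with the array set as a fixed or random block, 218 with all 28 arrays, 3128 with array weights, 0 with the 6 arrays alone (1750 at an unadjusted p under 0.05) and 37 with both replicate 1 arrays left out, which was chosen after seeing the data. Leaving out 1 array gave 35 to 152. The 6 differences of responses became 3 on the deposited scale, 2 with median centring, 166 and 107 with the set blocks, 2 with the 4 groups alone, 970 with array weights and 2 to 35 with 1 array left out, the 35 without fosB d/d KA replicate 2. The 0 genes between fosB d/d KA and fosB-null KA became 4 and 3 with the set blocks, 16 with array weights and 0 to 1 with 1 array left out. In the fit with a replicate block these 3 counts were 504, 24 and 2. Same-numbered arrays deviated together in all 3 pairs of fosB d/d KA with either saline group and of the saline groups, but not in all pairs of wild type KA with any of the other 3 groups (1 of 3 with fosB d/d KA, 1 with wild type saline, 2 with fosB d/d saline) or of fosB d/d KA with fosB-null KA (2 of 3). This shared deviation thus holds for part of the arrays in the differences of responses, and paired samples cannot be told apart from a shared array set. A block fit was added after seeing the data for 2 comparisons whose same-numbered arrays all deviated together. In it the saline count went from 2 to 3 and that of fosB d/d KA against its saline from 90 to 410. The calls of Ercc2, Pglyrp1, Thbs4 and Nptx2 in these comparisons did not change. Counts under the other settings stayed within 1.5 times. Of the 137 genes 76 lower and 32 higher ones kept their call with the fixed set block. That block ties fosB d/d KA to the wild type and saline groups through the replicate 1 arrays alone. Fosb and the 24 called genes of largest difference changed sign under none of these settings in which they were tested. On the deposited scale 193 of 701 members of the lists changed sign, 0 of them called, among them Tmem119, Camk2a and Inhba. The cause of these shifts was not tested. With 3 arrays per group, small differences may go undetected.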
